A study of Mus musculus with 13 samples.

Results

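The forestomach and the esophagus of the mouse are both lined by stratified squamous epithelium, and the 2 linings were compared here in the same 3 normal animals. The comparison used the 6 arrays labelled Cre/p120 +/+ out of 13 in the series: 3 of esophagus epithelium and 3 of forestomach epithelium, from the animals numbered 214, 216 and 217. Each animal gave both tissues, and the 6 arrays were chosen by genotype and tissue labels alone, not by any measured value. These animals carried L2-Cre with wild-type p120-catenin, the adhesion protein encoded by Ctnnd1, on a mixed C57Bl/6 and 129 background. They served as the controls of a study of p120 loss, so every sample described here carried the Cre transgene. The other 7 arrays came from 7 other animals with L2-Cre and floxed p120 alleles (p120 flox/flox), 4 of esophagus and 3 of forestomach masses. Epithelium had been peeled off with dispase, its total RNA taken up in Trizol, and biotin-labelled cRNA put on Affymetrix arrays. The ages and sexes of the animals and the cells in which L2-Cre is active were not given in the sources used here.

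A stratified squamous epithelium renews itself from basal cells, which express the keratin pair Krt5 and Krt14 and the transcription factor Trp63, and its cells change their keratins as they move outwards. In the epidermis the suprabasal pair is Krt1 and Krt10, and the cells end as cornified plates: proteins such as involucrin, loricrin, the SPRR proteins and the LCE proteins are crosslinked by transglutaminases into an envelope, ceramides are laid on it, and proteases cut the junctions that hold the outermost cells. In the esophagus the suprabasal pair is Krt4 and Krt13. The rodent forestomach is a squamous, keratinising compartment for storing food that lies between the esophagus and the glandular stomach.

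Values are intensities made by the authors with GCRMA, given here as log2 intensity, and the 3 values of a tissue are always listed in the order of animals 214, 216 and 217. A change is the log2 intensity of forestomach minus that of esophagus within an animal, averaged over 3 animals unless 1 animal is named, so that 1 unit is a 2-fold difference. Its standard error (SE) is that of limma's moderated fit, which draws each gene's spread towards that of all genes. A gene was called where limma's moderated test with the animal as a block gave a Benjamini-Hochberg adjusted p under 0.05 over all 15303 genes tested, and "rose" and "fell" are used of called genes only. Probe sets of 1023 olfactory receptors, taken as genes that these tissues do not use and chosen after the data were seen, had a median of 3.72 and a 95th percentile of 5.61. A gene listed below that level had no clear signal of its own, so its difference understates the true ratio and no fold is given for it.

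The arrays of the 3 animals were not equally free of other cells. The 19 fibroblast and matrix genes measured had a mean log2 intensity of 9.90 in the esophagus of animal 214, against 6.97 and 6.85 in the other esophagus samples and 7.43, 6.87 and 6.85 in the forestomach samples. Smooth muscle genes stood out in the same animal, at 9.14 in its esophagus and 7.68 in its forestomach against 6.14 to 6.22 on the other 4 arrays. Skeletal muscle genes were at 7.87 in that esophagus sample and at 5.73 to 6.00 on the other 5 arrays. Leaving out animal 214 removed none of the calls of the 202 named genes called. The parietal cell genes Atp4a and Atp4b and the mucin genes Muc5ac and Muc6 of the glandular stomach showed no call, with changes of 0.11 for Atp4a, 0.27 for Atp4b, 0.14 for Muc5ac and -0.04 for Muc6. Of the 14 glandular stomach genes tested 1 rose, by 0.345, and none fell, against 8.06% and 8.83% of all genes. Of these 14 changes 13 were above 0, with a median of 0.117. The epithelial genes Krt5, Krt14, Krt4, Krt13, Cdh1, Dsp, Pkp1 and Trp63 were high on every array, the lowest value being 9.81 for Trp63 in 1 esophagus sample. In tissue samples such as these, fewer cells of a type and less RNA per cell cannot be told apart.

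The 2 linings differed in many genes. Of 15303 genes tested, 2584 were called (16.9%): 1233 rose in forestomach (8.06%) and 1351 fell (8.83%). Changes of at least 2-fold were called in 273 genes that rose (1.78%) and 243 that fell (1.59%), and the median change over all genes was 0.02. Rises made up 47.7% of all calls, and 37.7% when each array was centred on its median. All 516 genes called with a 2-fold change kept their direction under every alternative fit in which they were tested, 423 of them with a filter above 7. Fits without the block, with all 13 arrays or with other eBayes settings give the same change as the main fit. Direction could not differ there. The number of calls moved with the animal left out: it was 274 without animal 216, 794 without animal 217 and 4694 without animal 214. Of the 516 genes 271, 466 and 516 were called in those fits. They have 1 residual degree of freedom, against 2 with all animals, so a lost call need not mean a different change. A fit to all 13 arrays without the block, whose spread includes that of the p120 flox/flox samples, called 1113 genes and removed 75 of the 202 calls of named genes, and 79 of the 202 were called under every alternative. For gene lists whose counts of calls moved by more than 1.5 times with 1 animal left out, the counts without animals 214, 216 and 217 are given in that order. Counts of calls in every list are to be read beside the 8.06% of all genes that rose and the 8.83% that fell. The lists were chosen with earlier results of these data known, so a larger share in a list is a description and no test.

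**Figure D1:**
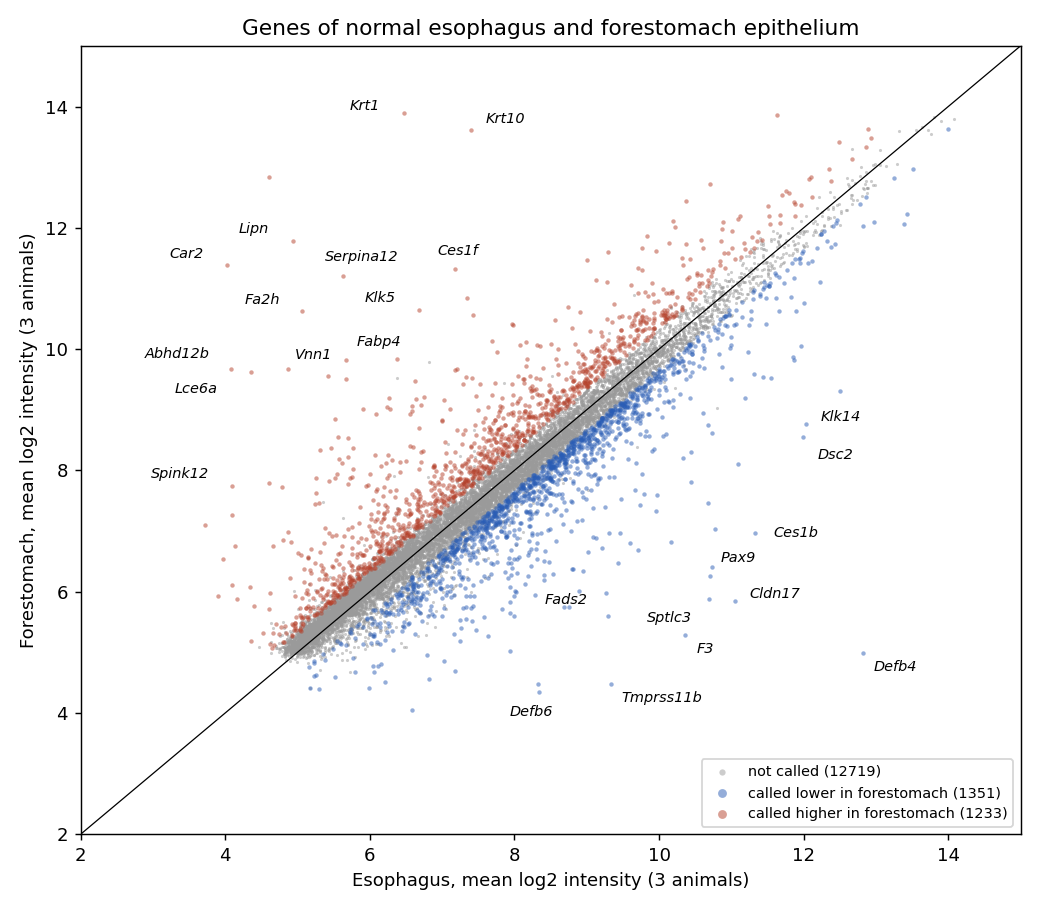
Mean log2 intensity in esophagus (horizontal axis) and forestomach (vertical axis) of the 3 control animals for each of 15303 genes, with the diagonal marking equal levels. Red genes were called higher in forestomach (1233), blue genes lower (1351) and grey genes were not called; Krt1 and Krt10 lie far above the diagonal among the most intense genes, and Defb4 lies far below it.

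The gene with the largest rise among named genes was Krt1, the type II keratin of suprabasal epidermis, with 6.08, 6.70 and 6.64 in esophagus and 13.93, 13.88 and 13.87 in forestomach. Its rise of 7.42 ± 0.15 (SE, adjusted p = 0.00012) amounts to 171-fold in intensity, with forestomach values close to the brightest on these arrays. Car2, a cytosolic carbonic anhydrase that interconverts carbon dioxide and bicarbonate, was at 3.72, 3.95 and 4.39 in esophagus, within the range of the olfactory receptors, and at 11.19, 11.53 and 11.44 in forestomach (rise of 7.37 ± 0.12, adjusted p = 0.00012). Lipn, a lipase of the acid lipase family expressed in differentiating keratinocytes, went from 4.89, 5.07 and 4.87 to 11.87, 11.71 and 11.80, a rise of 6.85 ± 0.10. Next came Krt10 (described with the keratins), Abhd12b (5.58, an abhydrolase family member), Serpina12 (5.58, vaspin, an inhibitor of serine proteases), Fa2h (5.57, the fatty acid 2-hydroxylase), Lce6a (5.28, a late cornified envelope protein) and Vnn1 (4.80, a pantetheinase). The other members of the 15 largest rises were Fabp4, Tmem229b, Ces1f, Klk5, Atp1b1 and Spink12, with rises of 3.65 to 4.15. Of these 15 genes, Atp1b1 (adjusted p = 0.051) lost its call without animal 216, as did Spink12 (adjusted p = 0.05). A clone-named gene outside the rule for named genes, 9130409I23Rik, rose by more than all of them, by 8.22, and was picked after its value was seen.

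The largest fall was that of Defb4, a beta-defensin, which was among the brighter genes of the esophagus at 12.79, 12.83 and 12.84 and lay at 4.14, 4.74 and 6.10 in forestomach. It fell by 7.83 ± 0.36 (adjusted p = 0.00071), with the highest forestomach value in animal 217. Cldn17, a claudin that forms anion-selective tight junction channels, fell by 5.21, from 11.19, 10.89 and 11.07 to 5.70, 5.40 and 6.43. F3, tissue factor, the cell-surface starter of blood clotting, fell by 5.08, with forestomach values of 5.33, 5.04 and 5.46, all at the olfactory receptor level, against 10.49, 10.29 and 10.31. Tmprss11b, a membrane-bound serine protease, fell by 4.86, Sptlc3, a subunit of the enzyme that starts sphingolipid synthesis, by 4.80, and Pax9, a transcription factor of the foregut, by 4.45. Ces1b, Defb6, Dynap, Ndufa4l2, Cyp2c65, Dsc2, Tppp3, Fads2 and Klk14 complete the 15 largest falls; of these Ces1b fell by 4.36 and Klk14, the smallest, fell by 3.28. In a fit to all 13 arrays without the animal as a block, Cyp2c65 had an adjusted p of 0.081, and no other of the 15 falls lost its call under any alternative.

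For 18 of these 30 genes RefSeq gives a promoter sequence in the table used here (GRCm38.p6), 8 of the rises and 10 of the falls. The 250 bases before the start site of 3 genes with large rises (Krt10, Lipn and Lce6a) and of Sptlc3, with a large fall, are shown as examples of regulatory sequence on each side of the comparison, written 5′ to 3′ on the gene's strand. Capitals mark matches, on either strand, to the TATA box TATAAA, the AP-1 motif TGANTCA and the GATA motif AGATAAG.
Krt10, chr11:99389365-99389614, minus strand: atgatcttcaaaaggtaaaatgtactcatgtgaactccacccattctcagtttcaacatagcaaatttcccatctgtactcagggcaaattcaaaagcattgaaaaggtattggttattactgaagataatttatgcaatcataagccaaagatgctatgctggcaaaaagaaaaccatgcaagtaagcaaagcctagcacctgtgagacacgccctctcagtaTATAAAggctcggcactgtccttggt
Lipn, chr19:34067108-34067357, plus strand: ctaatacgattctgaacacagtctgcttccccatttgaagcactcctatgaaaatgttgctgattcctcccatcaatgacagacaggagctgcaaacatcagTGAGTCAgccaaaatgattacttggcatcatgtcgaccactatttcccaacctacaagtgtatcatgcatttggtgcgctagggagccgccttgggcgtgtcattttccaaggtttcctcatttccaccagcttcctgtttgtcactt
Lce6a, chr3:92621661-92621910, minus strand: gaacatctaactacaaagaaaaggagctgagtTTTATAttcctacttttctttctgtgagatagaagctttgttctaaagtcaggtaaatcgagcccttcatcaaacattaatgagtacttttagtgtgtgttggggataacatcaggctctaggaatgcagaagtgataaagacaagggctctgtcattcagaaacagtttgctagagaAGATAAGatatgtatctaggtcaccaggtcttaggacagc
Sptlc3, chr2:139493663-139493912, plus strand: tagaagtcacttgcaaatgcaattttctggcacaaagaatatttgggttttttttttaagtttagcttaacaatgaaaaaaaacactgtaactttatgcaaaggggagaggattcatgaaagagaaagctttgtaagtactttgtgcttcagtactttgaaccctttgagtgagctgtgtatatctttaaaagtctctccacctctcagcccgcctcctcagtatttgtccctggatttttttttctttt
TATAAA stood in 3 of the 8 promoters of rises and 1 of the 10 of falls, against 12.4% of all 32851 promoter windows of that length in the table. TGANTCA stood in 1 of 8 and 1 of 10, against 6.75%, and AGATAAG in 2 of 8 and 1 of 10, against 2.74%. With so few promoters these are descriptions of the sequences and no comparison.

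The keratins separated the tissues at the suprabasal pair of the epidermis, while the pair of the esophagus was shared. Krt10, the type I partner of Krt1, was at 7.18, 7.16 and 7.86 in esophagus and 13.60, 13.62 and 13.63 in forestomach, a rise of 6.22 ± 0.16 (adjusted p = 0.00023). Krt15, a type I keratin of basal cells, went the other way: it was at 12.55, 12.50 and 12.48 in esophagus and 9.96, 9.23 and 8.75 in forestomach, and fell by 3.19 ± 0.22 (adjusted p = 0.002), with more spread in forestomach than in esophagus. The main basal pair changed little: Krt14 rose by 0.56 ± 0.08 and Krt5 fell by 0.39 ± 0.08. Krt4 lay at 14, 13.98 and 14 in esophagus and 13.63, 13.65 and 13.62 in forestomach, a fall of 0.36 between values close to the brightest on these arrays. Its partner Krt13 was not called, with a change of -0.29 (adjusted p = 0.06). The calls of Krt14, Krt5 and Krt4 were lost with animal 216 or 217 left out, in fits with 1 residual degree of freedom. Without animal 216 the adjusted p was 0.11 for Krt14, 0.19 for Krt5 and 0.18 for Krt4. Without animal 217 it was 0.085, 0.13 and 0.18 in the same order. Their changes moved little, to 0.590, -0.385 and -0.374 without animal 216 and 0.547, -0.434 and -0.350 without animal 217. Krt4 (adjusted p = 0.056) and Krt5 (adjusted p = 0.063) also missed the threshold after quantile normalization.

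Other keratins moved on a smaller scale. Krt7, a keratin of simple and transitional epithelia, rose by 1.64, from 6.07, 6.37 and 6.27 to 7.65, 7.64 and 8.35. The hair keratins Krt84 and Krt32 changed in opposite directions: Krt84 rose by 1.34 and Krt32, at 8.20, 7.99 and 7.65 in esophagus, fell by 2.12. Of the 10 keratins of stress and hair follicle tested 3 rose and 1 fell, with 4, 1 and 1 rises and 1, 0 and 1 falls with an animal left out. Krt17 rose by 1.03 and Krt6b by 1.55, Krt6a fell by 0.96, and Krt16 was not called (0.60). The call of Krt6a (adjusted p = 0.041) was lost without animal 216 (adjusted p = 0.22) and without the animal as a block (adjusted p = 0.091). Krt6b differed as much between animals as between tissues, with 8.80, 8.04 and 9.55 in esophagus and 10.77, 9.11 and 11.18 in forestomach, and without the animal as a block its adjusted p was 0.13. Krt17 lost its call without animal 216 (adjusted p = 0.076) and without animal 217 (adjusted p = 0.062). In all, 5 of the 14 basal and stratified keratins tested rose and 3 fell, with a median change of 0.34 against 0.02 over all genes. This list had 7, 2 and 4 rises and 4, 1 and 1 falls with an animal left out. Of the simple epithelial keratins, Krt8 rose by 0.43 between low values (7.30, 7.50 and 7.10 and 7.61, 7.97 and 7.61), a call lost without animal 216 (adjusted p = 0.19), and Krt18 was not called (0.20).

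**Figure D2:**
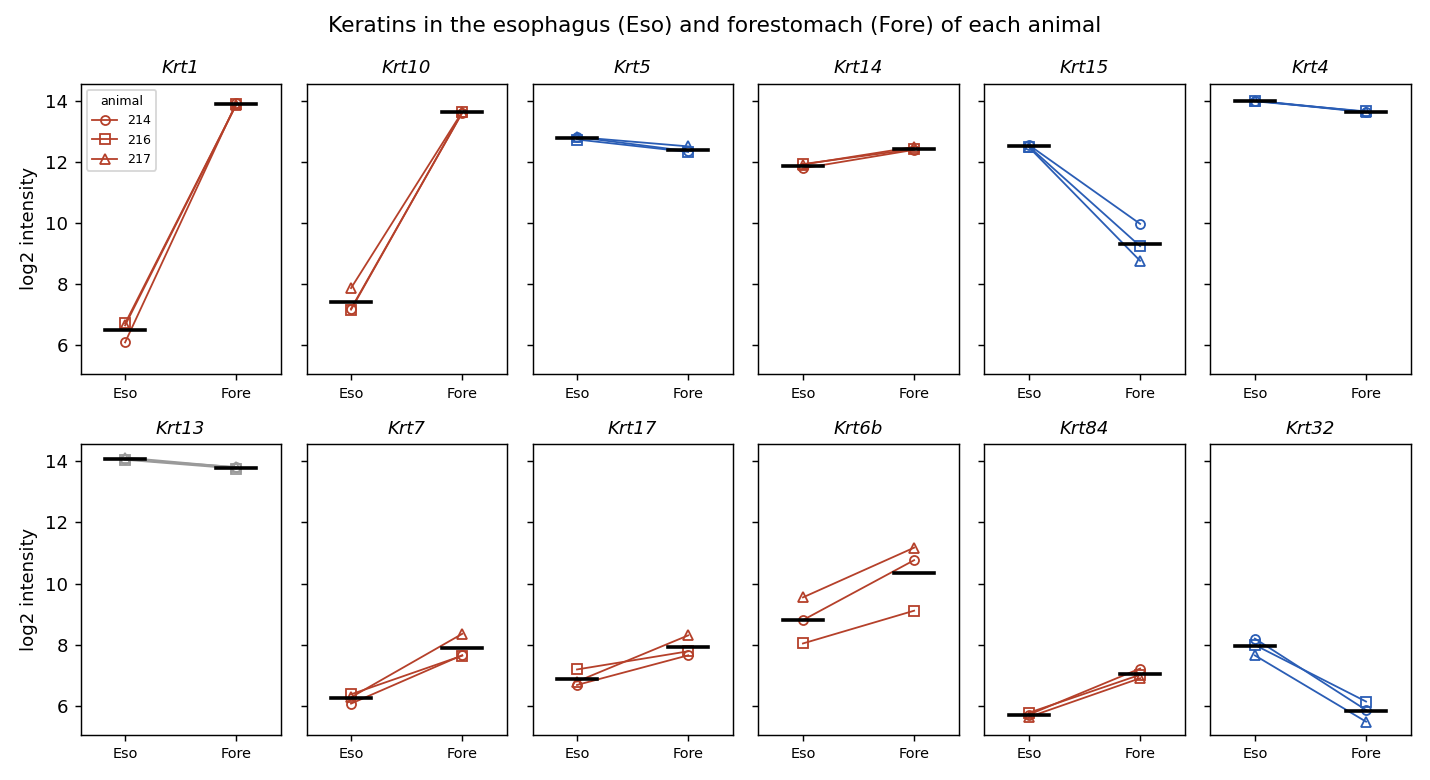
Log2 intensity (vertical axis) of 12 keratins in esophagus (Eso) and forestomach (Fore); each line joins the samples of 1 animal, black bars are means, and red, blue and grey mark genes called higher, called lower and not called. Krt1 and Krt10 climb from between 6.08 and 7.86 to between 13.60 and 13.93, Krt15 drops in all 3 animals, and Krt4, Krt5, Krt13 and Krt14 stay within 1 unit.

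Genes of the cornified envelope changed in blocks along the epidermal differentiation complex, a cluster on chromosome 3 that holds most of them. Of its 58 genes tested, named and ordered by RefSeq (GRCm38.p6), 23 rose and 14 fell, against 8.06% and 8.83% of all genes. Late cornified envelope genes of group 1 went up: 11 of 13 rose, with changes between 0.63 and 2.47 over all 13. Those of group 3, the next LCE genes along the chromosome, went down: 5 of 5 fell, by 0.67 to 2.05. Lce6a, at the other edge of group 1, was at 4.13, 4.29 and 4.64 in esophagus and 9.34, 9.97 and 9.58 in forestomach, a rise of 5.28 ± 0.15 (adjusted p = 0.00026). Among the SPRR genes, which encode small proline-rich crosslinking proteins, Sprr2d rose by 3.13 ± 0.14, Sprr2b by 2.86 and Sprr2i by 2.73, while Sprr1b fell by 1.49. Sprr2d varied between animals in step in both tissues, with 6.25, 7.77 and 8.28 in esophagus and 9.65, 11.01 and 11.03 in forestomach.

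Of the large envelope and filament-binding proteins, Ivl (involucrin) rose from 5.31, 5.66 and 5.90 to 8.74, 7.21 and 8.40, by 2.49 ± 0.35. Hrnr, hornerin, rose by 2.23 ± 0.09 to 13.88, 13.88 and 13.84, and Flg2, filaggrin 2, by 3.17 from 3.69, 4.21 and 4.35, a level without clear signal. Loricrin (Lor) and Sprr3 were bright in both tissues and were not called, with changes of 0.28 and 0.02. Over the whole list of envelope precursors 17 of 39 rose and 7 fell, with a median change of 0.47. Without animal 216 the list had 6 rises and 2 falls, and without animal 217 4 and 3. Ivl lost its call without animal 217 (adjusted p = 0.06) and Sprr1b without animal 216 (adjusted p = 0.08). The members of the Lce1, Lce3 and Sprr2 groups have near-identical sequences, so their probes may share signal, and values of single members are uncertain.

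**Figure D3:**
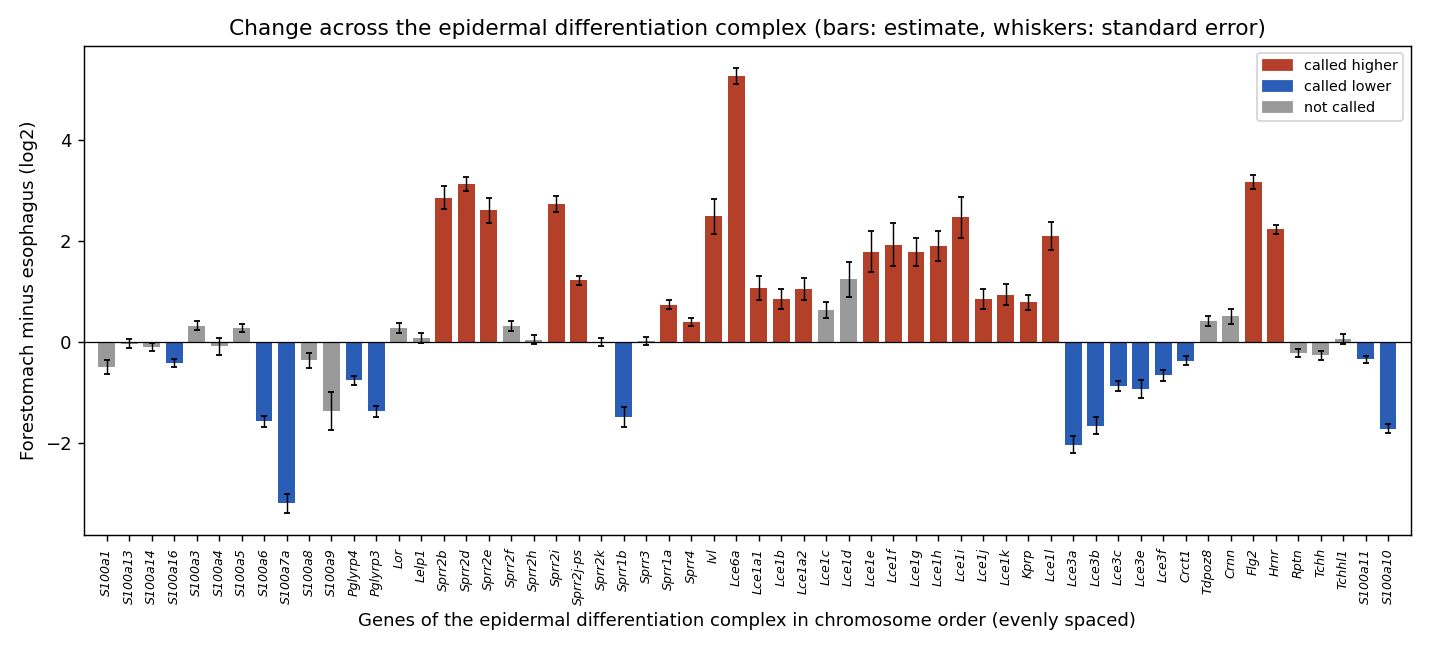
Change from esophagus to forestomach (vertical axis, log2) for the 58 genes of the epidermal differentiation complex in their order on the chromosome (horizontal axis, evenly spaced). Bars are estimates over 3 animals, whiskers are the standard errors of limma's moderated fit, and colours mark the call. Lce6a reaches 5.28, the Lce1 genes beside it lie above 0 and the Lce3 genes that follow lie below 0.

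The called changes among crosslinking enzymes and clade B serpins were mostly falls, and those among proteases of desquamation went both ways. Of the transglutaminases, 3 fell: Tgm5, by 1.30 from 8.79, 8.79 and 8.78, Tgm3, by 1.20 from 13.48, 13.41 and 13.40, and Tgm2, by 1.38. Of the 11 transglutaminases and peptidylarginine deiminases tested these were the only calls, and with an animal left out there were 3, 1 and 3 falls. Klk5, the kallikrein that activates others in the outer epidermis, was at 6.87, 7.31 and 5.87 in esophagus and 10.64, 11.14 and 10.17 in forestomach, a rise of 3.97 ± 0.13 (adjusted p = 0.00031). Klk7, the chymotrypsin-like kallikrein of the epidermis, rose by 2.03 ± 0.17. Klk14, a trypsin-like kallikrein, fell by 3.28 ± 0.09, from 12.01, 11.94 and 12.16 to 8.55, 8.78 and 8.94. In the list of kallikreins and desquamation proteases, which also holds their inhibitors, 9 of 25 rose and 2 fell, against 8.06% and 8.83% of all genes. There were 11, 3 and 7 rises and 4, 1 and 2 falls with an animal left out. Membrane serine proteases of the Tmprss11 family were divided as well: Tmprss11b fell by 4.86, Tmprss11d by 2.62 and Tmprss11g by 2.24, while Tmprss11e rose by 0.99. Tmprss11b had 9.35, 9.14 and 9.51 in esophagus against 3.71, 4.22 and 5.50. Among clade B serpins, intracellular protease inhibitors, 8 of 17 fell and 2 rose, against 8.83% and 8.06% of all genes. Serpinb13 had the largest rise (2.37) and Serpinb3a the largest fall (1.92). The serpin list had 3, 1 and 2 rises and 9, 1 and 5 falls with an animal left out. Of the genes named here, Tgm3 (adjusted p = 0.062), Tgm2 (adjusted p = 0.088) and Tmprss11e (adjusted p = 0.053) lost their calls without animal 216.

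Cell junction genes were called in both directions: of 25 tight and gap junction genes tested 8 rose and 4 fell, and of 10 desmosome genes 4 fell and none rose, against 8.06% of all genes that rose and 8.83% that fell. With an animal left out the tight and gap junction list had 10, 2 and 4 rises and 4, 2 and 3 falls and the desmosome list 4, 1 and 2 falls. Dsc2, desmocollin 2, a desmosomal cadherin, was at 12.15, 11.94 and 11.88 in esophagus and 8.28, 8.53 and 8.82 in forestomach and fell by 3.44 ± 0.17 (adjusted p = 0.00075). The desmosomal genes Dsp and Jup were not called, with changes of -0.17 for Dsp (desmoplakin) and 0.15 for Jup (plakoglobin). The median change was -0.25 over the desmosome genes and 0.19 over the tight and gap junction genes. Claudins, which set the ion selectivity of tight junctions, changed in both directions: Cldn17 fell by 5.21, Cldn8 by 1.89 and Cldn10 by 1.59, while Cldn1, the main claudin of epidermis, rose by 1.76, from 8.50, 8.0 and 8.43 to 10.06, 10.11 and 10.06. Gjb5, a connexin of gap junctions, rose by 1.03. Cldn10 lost its call without animal 216 (adjusted p = 0.059), and Cldn8 in the fit to all 13 arrays without a block (adjusted p = 0.052). E-cadherin (Cdh1) and p120-catenin itself (Ctnnd1) were not called, with changes of 0.15 and -0.09.

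Genes of ceramide synthesis gave large changes in both directions. Fa2h, which adds the 2-hydroxyl group to the fatty acids of ceramides, was at 4.95, 5.0 and 5.24 in esophagus, near background, and 10.65, 10.72 and 10.53 in forestomach, a rise of 5.57 ± 0.12 (adjusted p = 0.00012). Sptlc3, a subunit of serine palmitoyltransferase, showed the reverse, with 10.68, 10.71 and 10.67 in esophagus and 5.99, 5.70 and 5.97 in forestomach, a fall of 4.80 ± 0.10 (adjusted p = 0.00012). Its partner subunits Sptlc1 and Sptlc2 moved by 0.31 (not called) and 0.46 (called). Sptssa, a small activating subunit of the same enzyme, fell by 1.47. Ceramidases, which break ceramides down, were divided between Acer2, which rose by 2.21, and the acid ceramidase Asah1, which fell by 1.76. Degs2, which makes phytoceramides, rose by 1.96 but lost its call without animal 216 (adjusted p = 0.063). Of 39 barrier lipid genes tested, 17 rose and 8 fell, against 8.06% and 8.83% of all genes, with a median change of 0.29. The counts were 21, 3 and 8 rises and 8, 3 and 4 falls with an animal left out.

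Of 29 genes of fatty acid oxidation, ketone bodies and their PPAR regulators tested, 19 rose in forestomach, 1 fell and 9 were not called, with a median change of 0.43 and changes of -0.88 to 2.41. Acot1, an acyl-CoA thioesterase, was at 7.70, 8.23 and 8.03 in esophagus and 10.29, 10.40 and 10.50 in forestomach, a rise of 2.41 ± 0.11 (adjusted p = 0.0007). Pdk4, the kinase that turns off pyruvate dehydrogenase, rose by 1.98 ± 0.13, from 7.99, 8.42 and 7.84 to 10.27, 10.35 and 9.57. The nuclear receptors Ppara and Pparg rose by 1.10 and 1.12. Of the 19 rises 6 were at least 2-fold. The list had 21, 2 and 9 rises and 1, 0 and 1 falls with an animal left out, and Ppara (adjusted p = 0.092) and Pparg (adjusted p = 0.1) lost their calls without animal 216. Pdk4 had an adjusted p of 0.061 in the fit to all 13 arrays without a block.

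Enzymes of fatty acid synthesis went both ways. Both desaturases of polyunsaturated fatty acids were lower: Fads2 fell by 3.29 ± 0.09, from 9.13, 9.39 and 9.29 to 5.84, 5.96 and 6.14, and Fads1 fell by 2.21 ± 0.10. Elovl7, a fatty acid elongase, fell by 1.91 from 11.41, 11.36 and 11.56. Elovl6, the elongase of saturated fatty acids, rose by 1.11, from 10.89, 10.85 and 10.87 to 12.11, 11.90 and 11.93, and Scd1, the stearoyl-CoA desaturase, by 1.35, with a wide spread in esophagus (8.26, 6.48 and 7.21). Scd1 lost its call without animal 216 (adjusted p = 0.16), without animal 217 (adjusted p = 0.12) and without the animal as a block (adjusted p = 0.072), and Elovl6 in the fit to all 13 arrays without a block (adjusted p = 0.076). In this list 6 of 25 genes rose and 4 fell, and in cholesterol synthesis 6 of 21 rose and 4 fell. Over all genes 8.06% rose and 8.83% fell. With an animal left out there were 8, 1 and 2 rises and 6, 3 and 3 falls in the synthesis list and 7, 0 and 2 rises and 4, 0 and 0 falls in the cholesterol list. Fabp4, a fatty acid binding protein known from fat cells, was at 5.90, 5.49 and 5.63 in esophagus and 9.76, 9.80 and 9.89 in forestomach. Of the 6 adipocyte markers tested 2 rose, Fabp4 and Lipe, the latter by 0.66, while Plin1, Cidec and Retn were not called, with changes of 0.32, 0.28 and 0.13, and there were 4, 1 and 1 rises with an animal left out. The mean of the 6 markers, which includes Fabp4 itself, was 6.00 to 6.11 in esophagus and 6.87 to 7.12 in forestomach. The median change of the 6 was 0.298, and the part of fat cells in the change of Fabp4 was not tested. Gpam, which starts triglyceride synthesis, rose by 1.58.

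Enzymes of retinol and xenobiotic metabolism showed changes within families of near-identical genes. Probes of such genes may share signal, so values of single members are uncertain and their calls may not be separate. Ces1f, a carboxylesterase, rose by 4.14 ± 0.25, from 6.52, 7.43 and 7.59 to 11.39, 11.41 and 11.14, whereas Ces1b fell by 4.36 ± 0.24, from 10.94, 11.49 and 11.55 to 7.30, 6.84 and 6.75. Of the 6 Ces1 genes tested 1 rose and 4 fell, and of the Ces2 genes 4 of 4 fell, by 0.90 to 2.99. Of 27 alcohol and retinol dehydrogenases and related genes tested 9 rose and 3 fell, against 8.06% and 8.83% of all genes, and with an animal left out there were 10, 4 and 6 rises and 4, 0 and 2 falls. The retinol dehydrogenases Rdh1 and Rdh9 rose by 2.40 and 2.36, and the alcohol dehydrogenases Adh6a and Adh6b by 2.13 and 2.15. Aldh1a1, which oxidises retinal to retinoic acid, rose by 1.65, from 10.02, 10.13 and 9.74 to 11.72, 11.65 and 11.46, and Rarb, a retinoic acid receptor, fell by 1.02. Ephx2, soluble epoxide hydrolase, rose by 2.81, from 6.24, 6.19 and 6.27 to 9.05, 9.15 and 8.94. Among cytochromes P450, Cyp2c65 fell by 3.69 and Cyp2b10 by 2.36, and of the 21 tested 4 rose and 5 fell. The cytochrome list had 4, 1 and 4 rises and 6, 2 and 3 falls with an animal left out. Rarb lost its call without animal 216 (adjusted p = 0.063). In the fit to all 13 arrays without a block the adjusted p was 0.28 for Aldh1a1 and 0.087 for Cyp2b10.

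**Figure D4:**
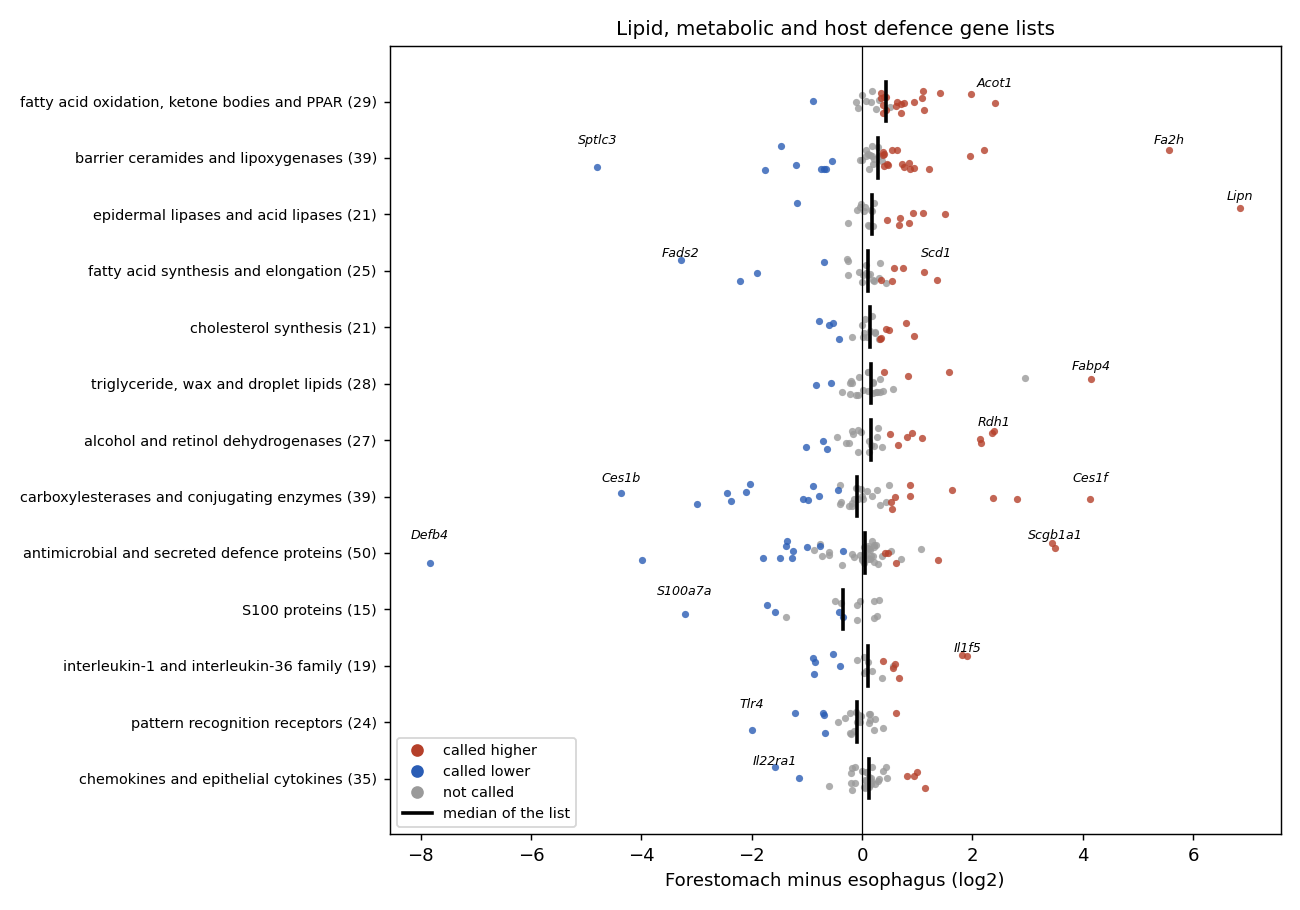
Change from esophagus to forestomach (horizontal axis, log2) of each gene tested in 13 lists of lipid, metabolic and host defence genes (rows, number of genes in brackets); red, blue and grey points were called higher, called lower and not called, and black bars are medians. Medians lie between -0.35 (S100 proteins) and 0.43 (fatty acid oxidation), while single genes such as Defb4, Lipn and Fa2h lie more than 5 units from 0.

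Host defence genes changed in both directions, in single genes by more than 3 units. Of 50 antimicrobial and secreted defence genes tested, 6 rose and 11 fell, against 8.06% and 8.83% of all genes, with a median change of 0.05. This list had 12, 3 and 3 rises and 13, 6 and 9 falls with an animal left out. Besides Defb4, the beta-defensins Defb6 and Defb14 fell, Defb6 by 3.99 ± 0.28 from 7.86, 8.35 and 8.79 and Defb14 by 1.80 ± 0.13 from 8.14, 8.35 and 8.21. Defb1 and Defb3 were not called, with changes of -0.37 and 0.71. Wfdc2, an antiprotease of the WAP family, fell by 1.48, whereas Wfdc21 rose by 3.45 ± 0.09, from 6.13, 6.58 and 6.43 to 9.66, 9.88 and 9.95. Scgb1a1, a secretoglobin known from the airway, rose by 3.50 ± 0.15, from 7.01, 7.45 and 7.57 to 10.74, 11.14 and 10.65. Of the S100 proteins, small calcium-binding proteins of which several are antimicrobial, 5 of 15 fell and none rose: S100a7a fell by 3.21 ± 0.19, from 10.95, 10.47 and 10.61 to 7.17, 7.49 and 7.73, S100a10 by 1.73 and S100a6 by 1.58. S100a8 and S100a9, the calprotectin pair, were not called, with changes of -0.37 and -1.38. With an animal left out there were 7, 3 and 3 falls among the S100 genes. Defb14 had an adjusted p of 0.19 in the fit to all 13 arrays without a block.

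Cytokine and sensor genes were also called in both directions: of 19 genes of the interleukin-1 and interleukin-36 family 6 rose and 5 fell, and there were 8, 2 and 2 rises and 5, 0 and 1 falls with an animal left out. Il1f5, the IL-36 receptor antagonist, rose by 1.91 ± 0.08, from 10.09, 10.34 and 10.16 to 12.05, 12.16 and 12.11, and Il1rl2, the IL-36 receptor, fell by 0.88. Il22ra1, the IL-22 receptor subunit of epithelia, fell by 1.59, from 8.09, 8.14 and 8.32 to 6.40, 6.53 and 6.87. Tlr4, the receptor of lipopolysaccharide, fell by 2.0 ± 0.16, from 8.16, 7.97 and 7.90 to 5.70, 6.29 and 6.04, while its co-receptor Cd14 rose by 0.61. Of 24 pattern recognition genes 1 rose and 5 fell, and of 35 chemokine and cytokine genes 4 rose and 2 fell, the latter close to the share of calls among all genes (16.9%). With an animal left out the pattern recognition list had 1, 0 and 0 rises and 8, 1 and 3 falls and the chemokine and cytokine list 10, 0 and 3 rises and 2, 1 and 2 falls. Leaving out animal 216 removed the calls of Il1rl2 (adjusted p = 0.095) and Cd14 (adjusted p = 0.14), as did leaving out animal 217 (adjusted p = 0.052 and 0.1). In the fit to all 13 arrays without a block, Il1f5 had an adjusted p of 0.16. Markers of T and NK cells, of B cells and of mast cells gave no call in any of the 24 genes tested, and 1 of 13 macrophage genes and 1 of 13 genes of MHC class II and dendritic cells rose. Macrophage genes were highest in the esophagus of animal 214, the sample with the high fibroblast and muscle genes: their mean was 7.43 there against 5.71 and 5.77 in the other esophagus samples, and 6.23, 6.27 and 6.35 in forestomach. Their median change was -1.56 in animal 214, 0.48 in animal 216 and 0.57 in animal 217. Without animal 214, 10 of the 13 macrophage genes and 5 of the 13 genes of MHC class II and dendritic cells were called higher in forestomach, as were 2 B cell genes and 1 mast cell gene, and their part in the other results was not tested.

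Several transcription factors with a regional pattern along the gut separated the tissues. Pax9, a paired-box factor of the pharynx and esophagus, was at 10.72, 10.63 and 10.77 in esophagus and 6.25, 6.50 and 6.02 in forestomach, a fall of 4.45 ± 0.14 (adjusted p = 0.00027). Sim2, a bHLH-PAS factor, fell by 2.30 ± 0.23, least in animal 216, with 9.93, 9.61 and 9.66 against 7.27, 8.01 and 7.01. Gata3, a zinc finger factor of epidermis and T cells, was at 5.81, 6.19 and 6.25 in esophagus and 8.87, 8.81 and 9.10 in forestomach, a rise of 2.85 ± 0.11 (adjusted p = 0.00051). Of the Iroquois homeobox genes 5 of 6 tested rose: Irx2 by 2.45 ± 0.13, from 7.47, 7.85 and 7.76 to 10.23, 10.05 and 10.14, Irx1 by 1.78 and Irx3 by 1.49. Pou2f3, a POU factor of suprabasal epidermis, rose by 1.53. Hox genes mark position along the body axis. In the Hox list, which also holds Meis1, 4 of 40 genes rose and 3 fell. That is close to the share of calls among all genes (16.9%). With an animal left out this list had 5, 1 and 4 rises and 7, 1 and 2 falls. By cluster, 3 of 8 HoxC genes rose and none fell, and none of 8 HoxA genes rose and 2 fell. In HoxB 1 of 9 genes fell, and in HoxD none of 8 was called. The 3 HoxC genes are neighbours on the chromosome in the RefSeq order: Hoxc8 rose by 1.96 ± 0.14, from 8.30, 8.98 and 8.94 to 10.63, 10.69 and 10.78, Hoxc6 by 1.26 and Hoxc5 by 0.70. Hoxc4, next to them, was not called (-0.16), and Hoxa5 fell by 1.20.

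Of 88 factors of squamous lineage and differentiation tested, which include Gata3 and Pou2f3, 14 rose and 17 fell, against 8.06% and 8.83% of all genes. Changes in this list ran from -1.49 to 2.85. Trp63, the factor of basal squamous cells, Klf4, of differentiating cells, and Pitx1 were not called, with changes of 0.38, 0.15 and 0.23. Sox2, a factor of the esophagus and stomach, fell by 0.48, from 9.65, 9.71 and 9.71 to 9.30, 9.06 and 9.27, and Klf5 fell by 0.62. Bhlhe40, a clock-linked repressor, fell by 1.49. The endoderm and gut factors Foxa2, Gata4, Gata6, Nkx2-1, Cdx2 and Barx1 were at 5.01 to 6.83 on all arrays and none was called. Of the 93 patterning factors tested 14 rose and 10 fell, against the same shares of all genes. Leaving out animal 216 removed the calls of Sox2 (adjusted p = 0.17), Klf5 (adjusted p = 0.15), Bhlhe40 (adjusted p = 0.061), Hoxc6 (adjusted p = 0.073) and Hoxc5 (adjusted p = 0.15), and leaving out animal 217 those of Sox2 (adjusted p = 0.13) and Klf5 (adjusted p = 0.1). With an animal left out the patterning list had 22, 4 and 6 rises and 12, 2 and 6 falls and the squamous list 21, 2 and 6 rises and 27, 0 and 5 falls.

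**Figure D5:**
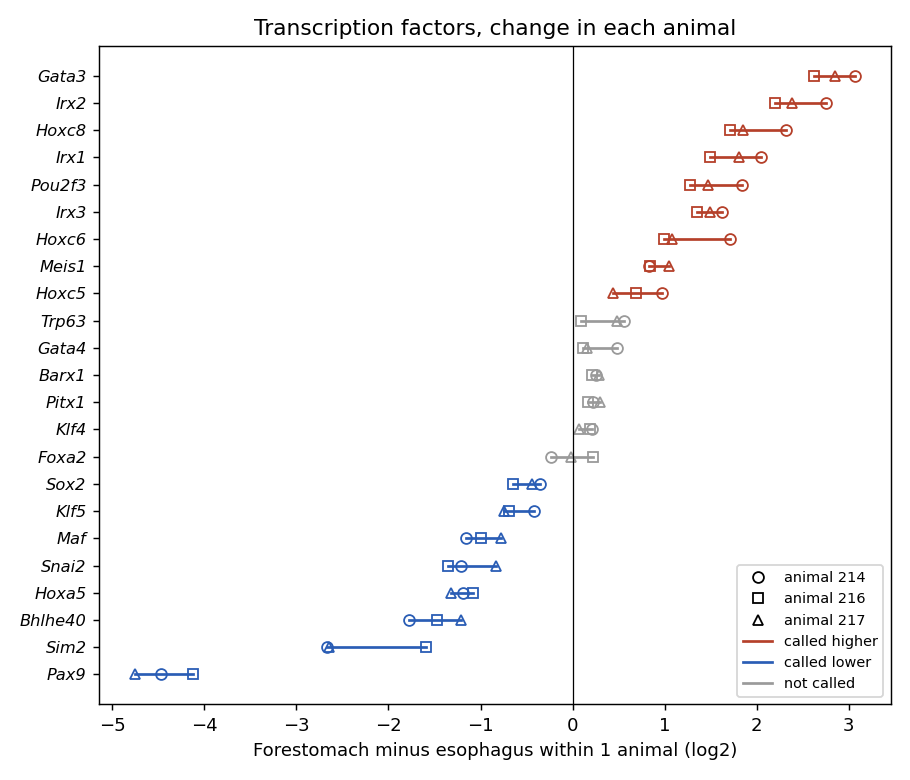
Change from esophagus to forestomach within each animal (horizontal axis, log2) for 23 transcription factors (rows); circles, squares and triangles are animals 214, 216 and 217, lines span the 3 animals and colours mark the call. Pax9 lies lowest, with all 3 animals below -4, Gata3 and Irx2 lie highest, and Foxa2 straddles 0.

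Transport genes included some of the largest changes. Besides Car2, the sodium pump subunit Atp1b1 rose by 3.85 ± 0.32, from 6.74, 5.16 and 5.10 to 9.59, 9.60 and 9.35, the esophagus of animal 214 being the highest of the 3. Aqp9, an aquaglyceroporin, rose by 2.47 ± 0.10, from 6.72, 6.58 and 6.94 to 9.16, 9.24 and 9.25. The sodium channel subunits Scnn1b and Scnn1g rose by 1.42 and 1.47, and their partner Scnn1a was not called (0.21). Atp13a4, a P-type ATPase, fell by 2.12, from 7.61, 7.80 and 8.07 to 5.62, 5.74 and 5.77. The proton pump genes Atp12a and Atp4a were not called (0.05 and 0.11). Of 54 genes in this list 12 rose and 7 fell, against 8.06% and 8.83% of all genes. There were 15, 2 and 7 rises and 9, 1 and 1 falls with an animal left out. Without animal 216 Atp1b1 (adjusted p = 0.051), Scnn1b (adjusted p = 0.053) and Scnn1g (adjusted p = 0.065) lost their calls. Scnn1g also lost its call without animal 217 (adjusted p = 0.051).

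Among secreted signals 15 of 70 rose and 7 fell, against 8.06% and 8.83% of all genes, and with an animal left out there were 20, 2 and 6 rises and 10, 1 and 2 falls. Bmp7 rose by 1.11 ± 0.08, from 7.65, 7.53 and 7.55 to 8.81, 8.58 and 8.65, and Bmp3, a BMP that antagonises others, fell by 1.15. The EGF receptor ligands Btc and Ereg rose by 1.31 and 1.25, and Egfr, their receptor, was not called (0.12). Wnt5a, a non-canonical WNT, fell by 1.48, with 7.57, 8.07 and 8.22 in esophagus and a wide spread in forestomach (5.43, 7.40 and 6.60). Without animal 216 the calls of Bmp3 (adjusted p = 0.11), Btc (adjusted p = 0.061) and Ereg (adjusted p = 0.061) were lost, and Wnt5a lost its call without animal 217 (adjusted p = 0.12) and without the animal as a block (adjusted p = 0.079).

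Of 31 cell division genes tested 1 rose and 4 fell, a share of calls close to that of all genes (16.9%), with a median change of -0.07. There were 6, 0 and 1 rises and 10, 0 and 0 falls with an animal left out. Immediate early genes, which respond within minutes to stress and handling, were higher in forestomach by their mean in all 3 animals, least in animal 217: the mean of 20 such genes was 7.91, 8.19 and 8.19 in esophagus and 9.09, 8.94 and 8.33 in forestomach. The median change of this list was 0.61, with 4 rises, of which Nr4a1 had the largest (1.85 ± 0.35, from 6.58, 6.77 and 6.32 to 9.49, 8.31 and 7.40). Fos and Jun were not called, with changes of 1.35 and 0.94. This list had 10, 0 and 7 rises and 1, 0 and 0 falls with an animal left out, and the part of handling in the other results was not tested.

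The p120 flox/flox samples gave the same comparison in 7 other animals, with forestomach masses in place of normal forestomach and no shared animals, so that tissue, disease and animal cannot be told apart there. In these arrays 39 genes were called higher in the masses than in flox/flox esophagus (0.255%) and 84 lower (0.549%). The threshold was the same, in a fit to the 7 flox/flox arrays alone. Of the 273 genes with a called 2-fold rise in normal forestomach 237 were higher in the masses too, 25 of them called. Of the 243 with a fall 207 were lower, 34 of them called, and no gene of either set was called in the opposite direction. The share of all genes that were higher or lower in the masses was not computed. With so few genes called in these arrays, few opposite calls could occur in any set of this size. Krt1 was higher by 7.52 in the masses (adjusted p = 0.00041), Car2 by 6.56 (adjusted p = 0.0011) and Krt10 by 5.42 (adjusted p = 0.01). Pax9 had a difference of -3.45 (adjusted p = 0.0094) and Dynap one of -4.30 (adjusted p = 0.0013). All 15 of the largest rises and all 15 of the largest falls kept their direction in the flox/flox arrays, with 6 rises and 5 falls called.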

How the data were processed

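The 13 arrays were labelled as esophagus or forestomach by tissue and as Cre/p120 +/+ or flox/flox by genotype, and the 6 Cre/p120 +/+ arrays entered the comparison. The deposited values are probe set intensities on a linear scale, which the authors made with GCRMA, per the submitters' processing notes. Its version and the batches of the arrays were not given in the sources used here. Whether the 2 tissues were run separately is therefore not known, and the part of array runs in the changes was not tested. GCRMA corrects for background by probe sequence and normalizes between arrays, so a change in the level of all genes would not show. Of 34729 probe sets, 21633 had 1 gene in the platform's annotation, 1306 several and 11790 none. Values were floored at 1 and log2 was taken. Probe sets were kept if above 5 on at least 3 of the 6 arrays, and each gene was given its probe set with the highest mean, which left 15303 genes and put 4631 below the filter. limma 3.58.1 in R 4.3.3 (lmFit and eBayes) was fitted with tissue and animal as terms and 2 residual degrees of freedom, and p-values were adjusted by Benjamini-Hochberg over all genes. Data for 15303 genes were simulated with each gene's mean and residual spread, an assumed animal effect and noise drawn independently between genes. The fit called 65 of 100 genes changed 2-fold and 90 of 100 changed 4-fold, with 5 false calls. Differences shared by many genes, such as those of animal 214, were not simulated. Only 100 genes were changed by each amount, whereas 2584 were called on the real arrays. The simulation therefore gives neither the number of false calls nor the share of changed genes found on the real arrays. Medians of the 6 arrays ran from 65.3 to 71.2 in intensity, and precision is limited by having 3 arrays per tissue.

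The pairing by animal comes from the numbers in the sample titles. Deviations from the tissue means correlated at 0.313 to 0.404 between samples of the same number and at -0.416 to 0.107 between different numbers. The rule for named genes covered 202 called genes and 16 not called. They were the 15 largest rises and falls with all 3 animals alike and no overlap (predicted genes left out), up to 6 called genes per list by size of change, and fixed marker genes. Other genes named in the text, such as those completing a family, are outside these counts. The comparison, the gene lists and the rule were chosen with earlier results of these data known. Alternatives without the block, with all 13 arrays, with other filters, probe choices, scalings, pseudocounts and variance models, and without each animal were fitted. The raw array files were not used here.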

Additional observations from a re-analysis of the deposited data

Results flagged for a closer look

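Of the 30 largest changes, 4 differed between the genotypes, by a test of the difference itself in a fit to all 13 arrays, in which the flox/flox change compares forestomach masses with esophagus of other animals. That fit had no block for the animal, so the paired control arrays were treated as independent. The 30 genes were chosen for large changes in the control arrays, which by itself favours smaller changes in other arrays. For Defb4 the tissue change was 6.01 higher in flox/flox than in control arrays (adjusted p = 0.00093), where it fell by 7.83 in control animals and a difference of -1.82 in flox/flox animals. For F3 it was 3.05 higher (adjusted p = 0.03), where it fell by 5.08 in control animals and a difference of -2.04 in flox/flox animals. Dsc2 had a tissue change 2.95 higher (adjusted p = 0.0033), where it fell by 3.44 in control animals and had a difference of -0.50. Sptlc3 had one 2.71 higher (adjusted p = 0.0025), where it fell by 4.80 in control animals and had a difference of -2.09. All 4 are genes that fell in normal forestomach and fell less, or were lower without a call, in the masses. Tissue, disease and animal cannot be told apart in the flox/flox arrays.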

How the results depend on the processing

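All 516 genes called with a change of at least 2-fold kept their direction under every alternative in which they were tested. In the alternatives that give the same change as the main fit by design, direction could not differ. None of the 218 genes covered by the rule for named genes reversed. The fit to all 13 arrays without a block called 1113 genes, 579 higher and 534 lower. Leaving out 1 animal moved the number of called genes between 274 and 4694, higher in forestomach between 139 and 2260, lower between 135 and 2434, at least 2-fold higher between 139 and 311 and at least 2-fold lower between 135 and 254. Leaving out 1 array in a fit without the animal as a block gave 1119 to 2538 called genes, 599 to 1221 higher and 520 to 1317 lower, 235 to 290 at least 2-fold higher and 201 to 235 at least 2-fold lower. Without the animal as a replicate block 2372 genes were called, 2127 of them also called with it, and 20 of the 202 named calls were lost. Without animal 216, 106 of the 202 were lost, and without animal 217, 46. Other settings kept each count within 1.5 times and lost at most 34 named calls, the most with all 13 arrays and the animal as a random block. With 2 residual degrees of freedom, changes under 2-fold were those most often lost, and genes near the olfactory receptor level have differences that understate the ratio.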

Other observations

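Mucin and glycosylation genes, a group apart from those described, gave 4 rises and 1 fall among 23 tested, against 8.06% and 8.83% of all genes, with a median change of 0.17. There were 5, 1 and 1 rises and 1, 0 and 0 falls without animals 214, 216 and 217 in turn. Galnt6, which starts O-glycan chains, rose by 1.33, from 5.03, 5.01 and 4.66 in esophagus to 6.91, 5.67 and 6.11 in forestomach, and Fut2, which adds the terminal fucose of secretor antigens, by 1.22. Fut2 was lowest in both tissues of animal 217, with 8.53, 8.46 and 6.49 in esophagus and 9.39, 9.26 and 8.46 in forestomach, and its adjusted p without the animal as a block was 0.19. Galnt6 lost its call without animal 217 (adjusted p = 0.11) and Fut2 without animal 216 (adjusted p = 0.13).

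Aldehyde dehydrogenases of fat and xenobiotic metabolism went both ways. Aldh3a2, the fatty aldehyde dehydrogenase, rose by 1.56 ± 0.08, from 8.28, 8.06 and 8.14 to 9.81, 9.71 and 9.63. Aldh3a1, a bright gene of the esophagus at 13.49, 13.29 and 13.37, fell by 1.32 ± 0.09 to 12.04, 12.05 and 12.11. Of 23 genes of aldehyde dehydrogenases and aldo-keto reductases tested 7 rose and 2 fell, and there were 8, 2 and 5 rises and 2, 1 and 2 falls without animals 214, 216 and 217 in turn. In the fit to all 13 arrays without a block Aldh3a1 had an adjusted p of 0.25.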
